A study of Homo sapiens with 12 samples.

Results

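The human mitochondrial genome carries 37 genes, and their transcripts were measured here in 12 RNA-seq libraries of PC9 and H1650 cells, established lung cancer lines. The members were all rows of the count table whose gene symbol starts with MT-. They are 37 of its 60591 rows, made up of 13 protein-coding genes, 2 rRNA genes and 22 tRNA genes. Of these, 35 had enough reads to be tested (13 of 13, 2 of 2 and 20 of 22), and MT-TA and MT-TF did not. Both lines are non-small cell lung cancer lines that, by the study's text, carry the same activating deletion in EGFR, although the genotype label of every sample reads Wild-type. All libraries were made from polyadenylated RNA. PC9 or H1650 cells in 0.1% DMSO were collected at 0 h (T0), or cells were exposed for 36 h to 10 µM erlotinib or 0.1 µM osimertinib, inhibitors of the EGFR tyrosine kinase. This gave 6 groups with 2 libraries each. A vehicle control at 36 h was not analysed here, so each change against T0 holds the drug and 36 h of culture together. The study calls the 2 libraries of a group biological replicates, while the labels do not say whether they were separate cultures, and the p-values measure the spread between these libraries.

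Both strands of the mitochondrial genome are transcribed into long precursors by the mitochondrial RNA polymerase POLRMT with the factors TFAM and TFB2M. tRNAs lie between most of the other genes and are cut out of the precursors, which frees the rRNAs of the mitochondrial ribosome and the mRNAs. The mRNAs encode core subunits of respiratory complexes I, III and IV and of ATP synthase, the other subunits of which are encoded in the nucleus. Mitochondrial mRNAs receive short poly(A) tails, the rRNAs receive shorter ones, and mature tRNAs end in CCA.

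The reference annotation (GENCODE 29 on GRCh38) places all 37 genes on chrM, and all 37 lengths in the count table equal those of the annotation. The long heavy-strand precursor, written on the plus strand of the reference, holds 28 genes, and 9 lie on the other strand, namely MT-ND6 and 8 tRNAs. The rRNA genes MT-RNR1 (12S, chrM:648-1601) and MT-RNR2 (16S, chrM:1671-3229) are separated only by MT-TV, and MT-TL1 follows MT-RNR2 directly. The light-strand tRNA genes MT-TA, MT-TN, MT-TC and MT-TY lie together ahead of MT-CO1, and MT-TP lies behind MT-TT at the far end of the gene order. The sequences of 8 tRNA genes are given because these were the tRNA rows that were higher after both drugs in PC9 cells. On the plus strand they are MT-TV (chrM:1602-1670, valine), MT-TL1 (chrM:3230-3304, leucine) and MT-TT (chrM:15888-15953, threonine). On the minus strand they are MT-TN (chrM:5657-5729, asparagine), MT-TC (chrM:5761-5826, cysteine), MT-TY (chrM:5826-5891, tyrosine), MT-TS1 (chrM:7446-7514, serine) and MT-TP (chrM:15956-16023, proline). Each is written 5′ to 3′ as the gene's own strand, from the GENCODE 29 transcripts, with the anticodon in capitals.
MT-TV: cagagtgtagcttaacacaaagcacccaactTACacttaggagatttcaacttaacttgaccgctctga
MT-TL1: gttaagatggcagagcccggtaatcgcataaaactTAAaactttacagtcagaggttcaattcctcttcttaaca
MT-TT: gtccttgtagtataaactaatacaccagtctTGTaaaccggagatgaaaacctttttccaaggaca
MT-TN: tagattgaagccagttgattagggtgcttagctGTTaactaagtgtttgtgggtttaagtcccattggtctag
MT-TC: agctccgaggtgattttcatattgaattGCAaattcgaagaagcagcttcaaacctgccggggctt
MT-TY: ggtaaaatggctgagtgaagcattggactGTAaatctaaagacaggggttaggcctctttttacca
MT-TS1: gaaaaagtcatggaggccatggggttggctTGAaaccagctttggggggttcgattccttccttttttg
MT-TP: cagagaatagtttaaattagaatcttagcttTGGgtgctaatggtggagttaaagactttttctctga

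MT-ATP8 and MT-ATP6, which encode subunits of ATP synthase, share 46 bases of chrM:8527-8572 on the plus strand, and a read within them belongs to both rows. These bases are given because the level of the short MT-ATP8 row can depend on how such reads were counted. Capitals mark the start codon of MT-ATP6 at the 5′ end and the stop codon of MT-ATP8 at the 3′ end.
MT-ATP8 and MT-ATP6 overlap: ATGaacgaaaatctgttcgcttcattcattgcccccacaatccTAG

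MT-ND4L and MT-ND4 share 7 bases and MT-ATP6 and MT-CO3 share 1. Whether the counting used strand is not given in the sources used here. A read from the opposite strand at MT-ND6 or at the 8 light-strand tRNA genes therefore cannot be told apart from a read of the gene. In base composition, MT-ND6 stands apart from the 12 heavy-strand mRNAs, with 7.05% C and 35.6% G in its own strand against 29.5% to 36.0% C and 6.28% to 16.2% G.

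The counted reads of a library ran from 17961765 to 26346187 (median 21581420.5). The filter on low counts left 19108 genes. All of them were tested together by the quasi-likelihood test of edgeR, and a change was called where its Benjamini-Hochberg adjusted p was under 0.05. Levels are given as normalized CPM, the usual measure of counts relative to a library's total, here after scaling of the libraries by TMM, and changes as log2 fold changes with their standard errors. The 6 epithelial markers summed to between 10216 and 10465 normalized CPM in PC9 cells at T0, 9560.4 and 9889.6 after erlotinib and 12484 and 13298 after osimertinib, and in H1650 cells to between 8194 and 8609 at T0, 6162 and 6203 after erlotinib and 8875 and 9672 after osimertinib. After erlotinib and osimertinib in PC9 and then in H1650 cells, 3, 3, 1 and 5 of these were called higher and 3, 2, 4 and 1 lower. The 8 markers of other cell types summed to between 21.6 and 23.9 at T0, 23.7 and 27.6 after erlotinib and 41.3 and 48.6 after osimertinib in PC9 cells and between 14.1 and 14.5 at T0, 12.3 and 14.2 after erlotinib and 16.7 and 19.3 after osimertinib in H1650 cells. Of the 4 of these with enough reads, 1, 2, 1 and 2 were called higher and 1, 1, 0 and 0 lower, and their part in the mitochondrial changes was not tested. PTPRC of leukocytes had at most 5 reads in a library and DCN of fibroblasts at most 1. In bulk RNA, fewer cells and less RNA per cell cannot be told apart.

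The share of all counted reads that fell on the 37 mitochondrial genes was 5.17% and 4.54% in the 2 PC9 libraries at T0, 6.87% and 6.81% after erlotinib and 7.20% and 6.32% after osimertinib. In H1650 cells it was 4.36% and 5.36% at T0, 6.51% and 6.60% after erlotinib and 5.77% and 6.56% after osimertinib. In both lines, each treated library lay above both T0 libraries. The 2 rRNA rows took 0.329% and 0.315% in PC9 cells at T0, 1.41% and 1.47% after erlotinib and 1.28% and 1.25% after osimertinib. In H1650 cells the rRNA share was 0.421% and 0.511% at T0, 0.883% and 0.922% after erlotinib and 0.568% and 0.682% after osimertinib. The 13 mRNA rows took 4.82% and 4.20% at T0, 5.40% and 5.29% after erlotinib and 5.87% and 5.01% after osimertinib in PC9 cells. Their share in H1650 cells was 3.92% and 4.83% at T0, 5.60% and 5.65% after erlotinib and 5.18% and 5.85% after osimertinib. The rRNA share differed more between T0 and treated PC9 libraries, relative to its level, than the mRNA share. With 2 libraries against 2, an exact permutation test cannot go below p = 0.333, so these shares were not tested. Their 95% Wilson intervals reach at most 0.0114 percentage points to either side and cover counting error alone, because PCR copies of 1 molecule count as separate reads.

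**Figure D1:**
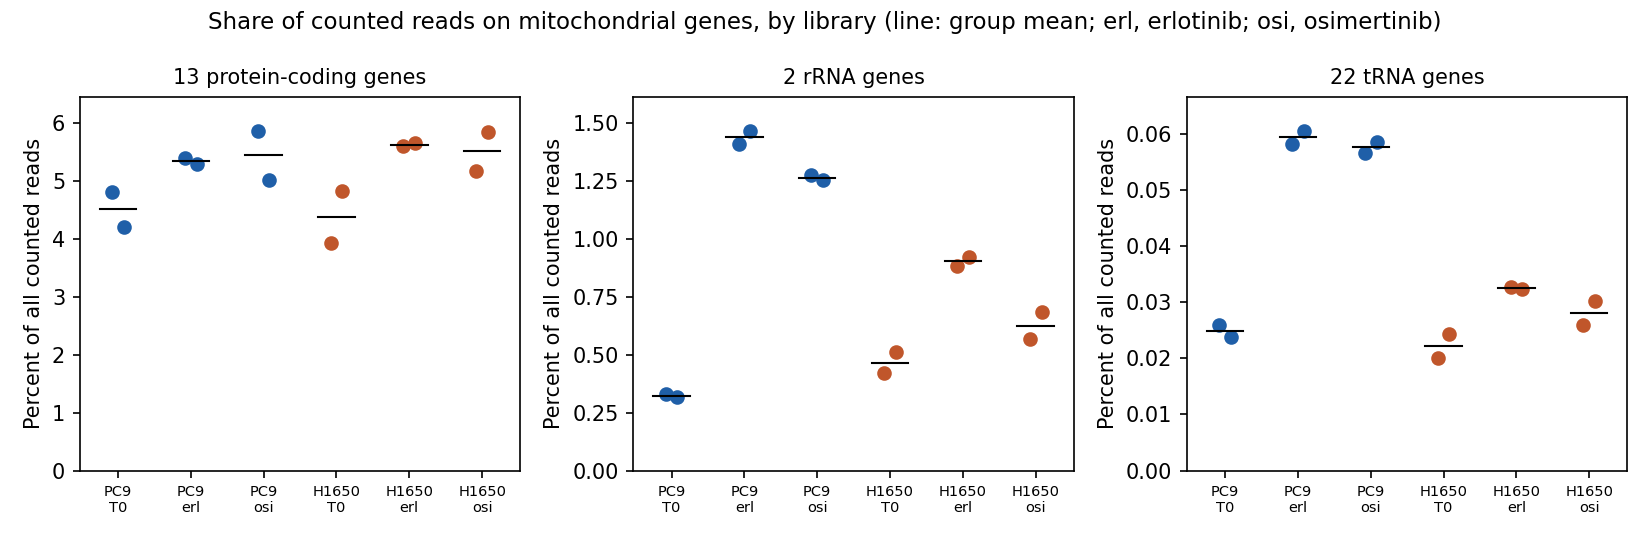
Percent of all counted reads (y axis) on the 13 protein-coding, 2 rRNA and 22 tRNA genes in each group of line and treatment (x axis), with 1 point per library and a line at the group mean. The rRNA share of PC9 libraries lay at 0.329% and 0.315% at T0 and between 1.25% and 1.47% after the drugs, and the highest tRNA share was 0.0606%.

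After erlotinib, 12 of the 35 tested mitochondrial genes were higher and 4 lower in PC9 cells than at T0, so that 45.7% were called, against 61.8% of all genes tested (32.7% higher and 29.1% lower). After osimertinib, 15 were higher and 1 lower in PC9 cells (45.7%, against 61.4% of all genes, 32.7% higher and 28.7% lower). In H1650 cells, 10 were higher and 0 lower after erlotinib (28.6%, against 36.5%, 18.0% higher and 18.5% lower). After osimertinib, 9 were higher and 1 lower (28.6%, against 35.7%, 17.8% higher and 17.9% lower). The 1 lower, MT-TK, passed the filter on reads only through its H1650 T0 libraries. For the 0 lower after erlotinib in H1650 cells, 0 of 35 had an unadjusted p under 0.05, and DESeq2 called 0. The difference between these shares was not tested. The T0 libraries of a line served for both drugs. With upper quartile factors or library totals alone, the split after erlotinib in PC9 cells was 17 higher and 2 lower of 35. The smaller counts rested on few libraries. Without PC9 T0 replicate 1, the 4 genes called lower after erlotinib became 1. Without H1650 T0 replicate 1, the genes called higher in H1650 cells went from 10 to 5 after erlotinib and from 9 to 2 after osimertinib. Leaving out H1650 erlotinib replicate 2 gave 6 after erlotinib, and leaving out H1650 osimertinib replicate 2 gave 4 after osimertinib, while leaving out H1650 T0 replicate 2 gave 14. Of the genes called lower after osimertinib, the 1 in PC9 cells (MT-CYB) became 0 without PC9 T0 replicate 1 and 2 or 3 without any other library except PC9 osimertinib replicate 2, and the 1 in H1650 cells (MT-TK) became 0 without any library except H1650 T0 replicate 1 and H1650 osimertinib replicate 1, where another gene was called.

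The rRNAs of the mitochondrial ribosome had the largest changes of the 15 mRNA and rRNA rows in PC9 cells. MT-RNR2, the 16S rRNA of the large subunit, stood at 2953 and 2828 normalized CPM in PC9 cells at T0, 12432 and 13160.2 after erlotinib and 11763 and 11704 after osimertinib. It rose by 2.15 ± 0.087 on the log2 scale after erlotinib (4.43-fold, adjusted p = 3.43e-18) and by 2.02 ± 0.086 after osimertinib (4.06-fold, adjusted p = 1.06e-17). The treated PC9 libraries lay far above both T0 libraries. In H1650 cells, MT-RNR2 stood at 3582 and 4371 at T0, 7316 and 7704 after erlotinib and 4807 and 5709 after osimertinib, with changes of 0.92 ± 0.084 (adjusted p = 1.17e-09) and 0.40 ± 0.083 (adjusted p = 0.000317). The groups did not overlap there either. Here and below, an absence of overlap between 2 and 2 libraries describes the values and is no test. The share of all genes without overlap was not counted. Each of these 4 calls held in 22 of 22 alternative fits, which include every library left out in turn.

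MT-RNR1, the 12S rRNA of the small subunit, stood at 512 and 524 normalized CPM in PC9 cells at T0, 1514 and 1544 after erlotinib and 1248 and 1318 after osimertinib. Its changes were 1.56 ± 0.080 (2.95-fold, adjusted p = 6.54e-16) and 1.31 ± 0.079 (2.48-fold, adjusted p = 2.53e-14), beside 2.15 and 2.02 for MT-RNR2. In H1650 cells it stood at 726 and 819 at T0, 868 and 985 after erlotinib and 747 and 858 after osimertinib. There the change after erlotinib was 0.26 ± 0.078 (adjusted p = 0.00887), a call that was lost without H1650 T0 replicate 1 (0.17) or H1650 erlotinib replicate 2 (0.16). After osimertinib the libraries overlapped with T0, and the change was 0.055 ± 0.078 (adjusted p = 0.639), with a 95% interval from -0.10 to 0.21. The ratio of MT-RNR2 to MT-RNR1 reads was 5.76 and 5.39 in PC9 cells at T0, 8.21 and 8.52 after erlotinib and 9.43 and 8.88 after osimertinib. In H1650 cells the ratio was 4.93 and 5.34 at T0, 8.43 and 7.82 after erlotinib and 6.43 and 6.65 after osimertinib, so that in both lines every treated library had a higher ratio than every T0 library. This ratio was not tested.

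**Figure D2:**
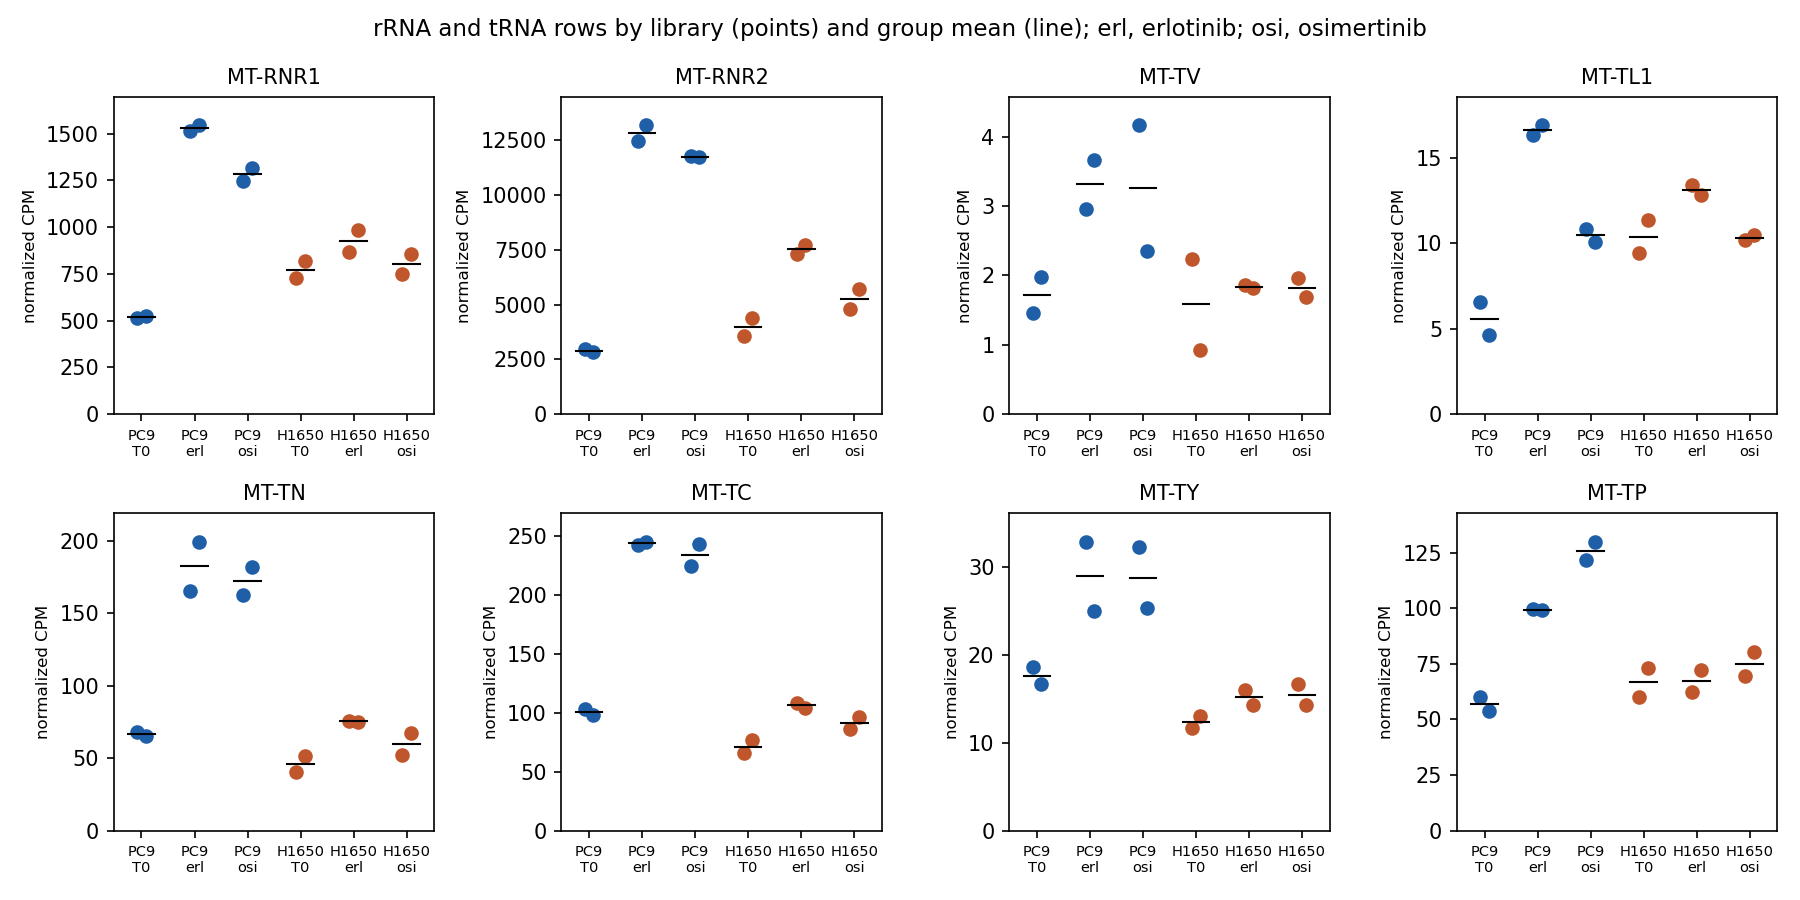
Normalized CPM (y axis, each panel on its own scale from 0) of both rRNA rows and 6 tRNA rows in each group of line and treatment (x axis), with 1 point per library and a line at the group mean. MT-RNR2 lay at 2953 and 2828 in PC9 cells at T0 and between 11704 and 13160.2 after the drugs, and MT-TC at 103 and 97.7 against 242 and 245 and 224 and 243.

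The tRNA rows held few reads, between 0.0201% and 0.0606% of all counts. MT-TC, MT-TN and MT-TP together took 80.4% to 91.0% of them in each library, and 16 of the 22 rows stayed below 100 reads in every library. Since the libraries were made from polyadenylated RNA, a read at a tRNA gene need not come from a mature tRNA. In PC9 cells, 8 of the 20 tested tRNA genes were higher and 2 lower after erlotinib, and 8 were higher and 0 lower after osimertinib (1 lower at an unadjusted p under 0.05, and 0 in DESeq2), where 32.7% and 32.7% of all genes were higher. With each drug, the higher ones were those whose sequences are given above, and both comparisons share the T0 libraries. They include 5 of the 7 tested light-strand tRNAs (MT-TC, MT-TN, MT-TY, MT-TP and MT-TS1) and 3 of the 13 tested heavy-strand ones (MT-TV, MT-TL1 and MT-TT). Among them are all 6 rows that reached 100 reads in a library (MT-TC, MT-TN, MT-TP, MT-TY, MT-TL1 and MT-TT). A difference between the strands therefore cannot be told apart from the number of reads. The median log2 change of the 20 tRNAs was 0.51 and 0.46 in PC9 cells and 0.25 and 0.13 in H1650 cells, while with libraries scaled to their summed mRNA reads the H1650 medians were -0.011 and -0.12.

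MT-TC stood at 103 and 97.7 normalized CPM in PC9 cells at T0, 242 and 245 after erlotinib and 224 and 243 after osimertinib, and rose by 1.28 ± 0.081 (adjusted p = 7.93e-14) and 1.22 ± 0.081 (adjusted p = 2.13e-13). Its neighbour MT-TN stood at 68.3 and 65.4 at T0, 166 and 199.5 after erlotinib and 163 and 182 after osimertinib, with changes of 1.45 ± 0.11 and 1.37 ± 0.11. Treated and T0 libraries did not overlap for either gene. MT-TY, the next gene in this cluster, rose by 0.71 ± 0.14 and 0.71 ± 0.14. MT-TP, which lies far from the cluster, stood at 60.0 and 53.9 at T0, 99.8 and 99.0 after erlotinib and 122 and 129.9 after osimertinib, with changes of 0.80 ± 0.10 and 1.14 ± 0.10. MT-TL1, directly behind MT-RNR2, stood at 6.55 and 4.64 at T0, 16.3 and 16.9 after erlotinib and 10.9 and 10.1 after osimertinib, with changes of 1.57 ± 0.16 and 0.91 ± 0.16. MT-TV, between the rRNA genes, changed by 0.95 ± 0.34 and 0.94 ± 0.35, and MT-TT by 0.87 ± 0.23 and 1.11 ± 0.23. The calls of MT-TV were lost without PC9 T0 replicate 1 (0.74 and 0.73), PC9 erlotinib replicate 2 (0.78) or PC9 osimertinib replicate 1 (0.45), and that of MT-TT after erlotinib without PC9 T0 replicate 2 (0.56). DESeq2 called MT-TV with neither drug.

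MT-TS1 had only 1 and 4 reads in PC9 cells at T0, 19 and 25 after erlotinib and 20 and 8 after osimertinib. Its fitted changes of 2.82 ± 0.72 and 2.44 ± 0.76 rest on these reads and depend on the prior count of the fit, and the second was lost without PC9 T0 replicate 1 (1.79) or PC9 osimertinib replicate 1 (1.80). The 2 tRNAs called lower after erlotinib in PC9 cells were also low in reads. MT-TH, the histidine tRNA, had 40 and 28 reads at T0 and 20 and 18 after erlotinib (-1.09 ± 0.40, adjusted p = 0.0196), and MT-TS2, another serine tRNA, had 18 and 6 at T0 and 3 and 4 after erlotinib (-2.00 ± 0.84, adjusted p = 0.0419). Both calls were lost without PC9 T0 replicate 1 (-0.80 and -1.0) or PC9 erlotinib replicate 2 (-0.92 and -2.11), and that of MT-TS2 without PC9 erlotinib replicate 1 (-1.90). Both were also lost in DESeq2, and that of MT-TS2 with upper quartile factors or library totals.

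In H1650 cells, 4 tRNA genes were higher and 0 lower after erlotinib (0 lower at an unadjusted p under 0.05, and 0 in DESeq2), and 2 were higher and 1 lower after osimertinib, of 20 tested, where 18.0% and 17.8% of all genes were higher. MT-TC stood at 65.4 and 76.6 normalized CPM at T0, 109 and 104 after erlotinib and 86.3 and 96.2 after osimertinib, with changes of 0.58 ± 0.082 and 0.36 ± 0.083. MT-TN stood at 40.2 and 51.6 at T0, 75.8 and 75.2 after erlotinib and 52.1 and 67.5 after osimertinib, with changes of 0.71 ± 0.11 and 0.38 ± 0.11. Both genes were thus called higher with both drugs in both lines, with groups that did not overlap. Without H1650 T0 replicate 1, the calls after osimertinib were lost for MT-TC (0.25) and MT-TN (0.21), and without H1650 osimertinib replicate 2 for MT-TN (0.18). MT-TT rose by 0.95 ± 0.22 after erlotinib. The remaining calls were MT-TD, the aspartate tRNA, with 21 and 21 reads at T0 and 29 and 46 after erlotinib (1.03 ± 0.41), and MT-TK, the lysine tRNA, with 11 and 15 reads at T0 and 2 and 4 after osimertinib (-1.94 ± 0.77). With adjusted p-values of 0.0478 and 0.0487, these calls held in 5 of 21 and 3 of 20 alternative fits. MT-TK passed the filter on reads only through its H1650 T0 libraries, so its lower call leans on the group that admitted it. That of MT-TD was lost without any library except H1650 osimertinib replicate 1 (changes between 0.74 and 1.26), and that of MT-TK without any of the 12 (between -2.45 and -1.59). The other 8 tested tRNAs, MT-TE, MT-TG, MT-TI, MT-TL2, MT-TM, MT-TQ, MT-TR and MT-TW, had changes between -0.91 and 1.07 and between -0.79 and 1.00 in PC9 cells and between -0.61 and 0.70 and between -0.88 and 0.88 in H1650 cells, none of them called.

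**Figure D3:**
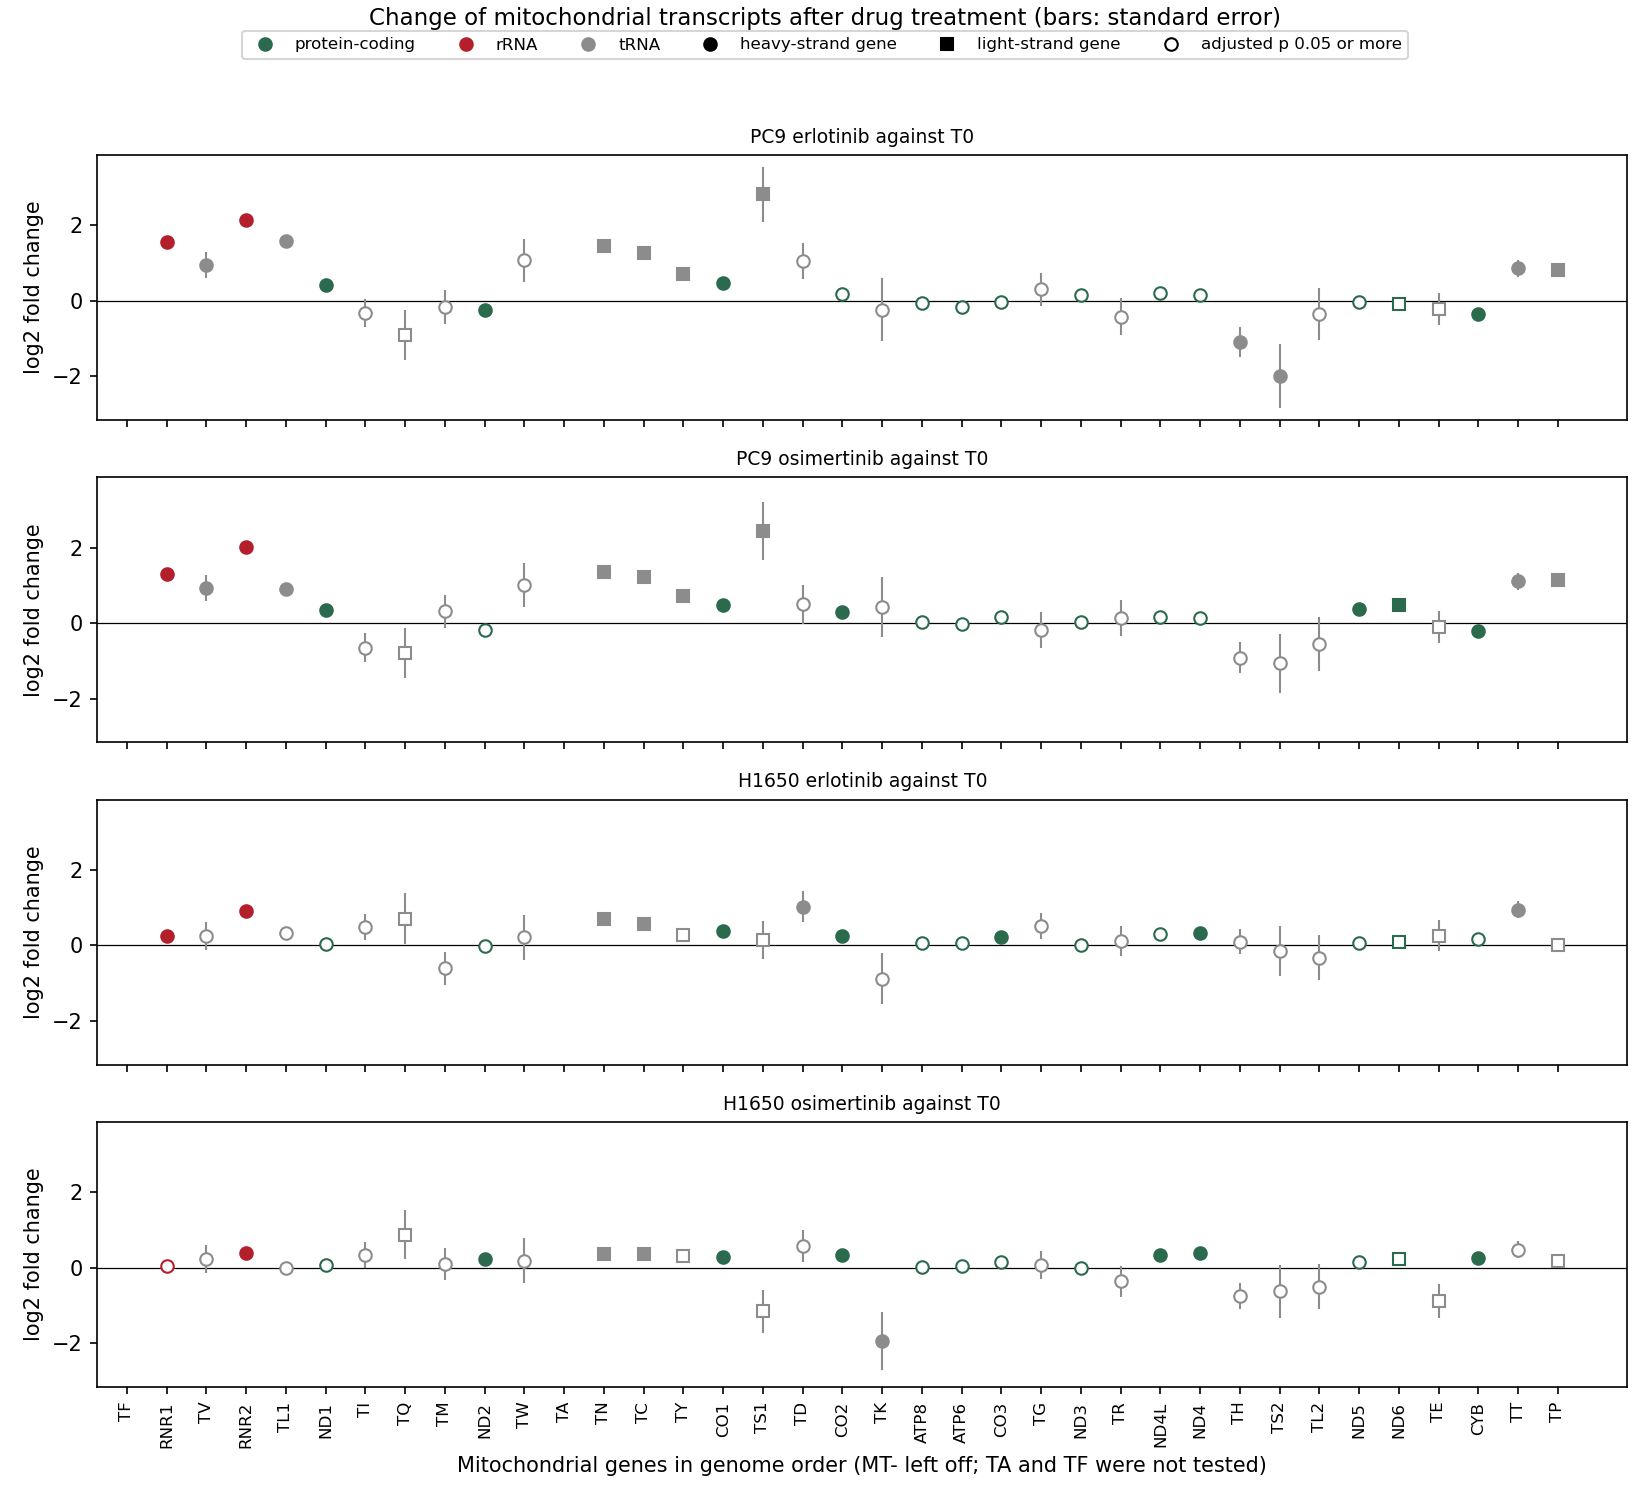
Log2 fold change against T0 (y axis) of the 35 tested mitochondrial genes in their order on the genome (x axis), for each line and drug. Bars are standard errors, circles heavy-strand and squares light-strand genes, and open symbols an adjusted p of 0.05 or more. In PC9 cells, the rRNAs (MT-RNR2 at 2.15 and 2.02) and a run of light-strand tRNAs ahead of MT-CO1 (MT-TN at 1.45 and 1.37) lie above the mRNAs, whose changes run from -0.36 to 0.47.

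Per kilobase of gene length, the mRNAs spanned a wide range, and levels between genes are compared only on this scale of normalized CPM per kilobase (mean ± SD, n = 2). In PC9 cells at T0, the highest was MT-CO2, a subunit of complex IV, at 8065 ± 701, followed by MT-CO1, the catalytic subunit of that complex, at 7799.7 ± 665, MT-ATP6 at 6686 ± 603, MT-CO3 at 6471 ± 354 and MT-ND4 at 6196 ± 763. Neighbours among these 5 lay within the sum of their SDs of each other. The complex I mRNA MT-ND4L followed at 4118 ± 170.0, then MT-ND2 at 2891 ± 251, MT-ND1 at 2074 ± 191, MT-CYB of complex III at 1879 ± 152, MT-ND3 at 1851 ± 72.5, MT-ND6 at 1312 ± 164 and MT-ND5 at 1256 ± 150.2. From MT-ND1 to MT-ND3 and from MT-ND6 to MT-ND5, neighbours again lay within their SDs. MT-ATP8 was lowest at 339.7 ± 29.3. Its row is short and shares 46 bases with MT-ATP6, so its rank in either line can depend on how reads there were counted. In H1650 cells at T0, MT-CO2 was also highest, at 9609 ± 1638, and MT-ATP8 lowest, at 265 ± 77.3, while MT-CO1 stood below MT-CO3 and MT-ND4 at 5712 ± 608. After erlotinib, MT-CO1 was highest in PC9 cells at 10739 ± 577 and MT-CO2 in H1650 cells at 11462 ± 573. The 16S rRNA row, at 1854 ± 56.6 in PC9 cells at T0, was below most mRNAs, and at 8208 ± 330.1 after erlotinib it was above all mRNAs except MT-CO1 and MT-CO2. The libraries were made from polyadenylated RNA and the rRNAs carry shorter tails, so these ranks hold for reads and not for amounts of RNA.

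In PC9 cells the mRNA rows moved less than the rRNA rows. With libraries scaled to nuclear and mitochondrial genes alike, 2 of 13 mRNAs were higher and 2 lower after erlotinib in PC9 cells, and 5 and 1 after osimertinib. In H1650 cells 4 were higher and 0 lower, then 6 and 0 (0 lower also at an unadjusted p under 0.05 and in DESeq2). Of all genes, 32.7% were higher and 29.1% lower, then 32.7% and 28.7%, in PC9 cells. The H1650 shares were 18.0% and 18.5%, then 17.8% and 17.9%. Compared with PC9, the change in H1650 cells was higher for 1 mRNA and lower for 1 with erlotinib, and higher for 2 with osimertinib. Over the 13 mRNAs, the median log2 change was -0.026 after erlotinib and 0.15 after osimertinib in PC9 cells, and 0.10 and 0.22 in H1650 cells, beside medians over all genes tested of 0.074, 0.064, 0.00508 and 0. The sign of the first depends on the scaling: it was -0.047 with RLE factors and -0.048 in DESeq2, but 0.064 with upper quartile factors and 0.063 with library totals alone. The other 3 medians kept their sign under these scalings, as did the rRNA medians (1.85, 1.66, 0.59 and 0.23). With libraries scaled to their summed mRNA reads, the mRNA medians were -0.18, -0.074, -0.13 and -0.038, and that of the rRNAs after osimertinib in H1650 cells was -0.037. Library totals moved the median of all genes by 0.13 after erlotinib in H1650 cells, and the shift stayed below 0.1 in the other drug comparisons with each of these scalings.

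In PC9 cells, MT-CO1 and MT-ND1 rose with both drugs. MT-CO1 stood at 12752 and 11302 normalized CPM at T0, 17189 and 15930.2 after erlotinib and 18039 and 15349.8 after osimertinib, with changes of 0.46 ± 0.082 (adjusted p = 2e-05) and 0.47 ± 0.082 (adjusted p = 1.38e-05). MT-ND1, a core subunit of complex I and the first mRNA behind the rRNAs, stood at 2112 and 1853 at T0, 2628 and 2656 after erlotinib and 2784 and 2304 after osimertinib, with changes of 0.41 ± 0.092 and 0.36 ± 0.092. Treated and T0 libraries did not overlap for either gene, and the call of MT-ND1 after osimertinib was lost without PC9 osimertinib replicate 1 (0.22). MT-CYB, the complex III subunit, stood at 2266 and 2021 at T0, 1677 and 1658 after erlotinib and 2041 and 1689 after osimertinib. It fell after erlotinib (-0.36 ± 0.087, adjusted p = 0.000705) and after osimertinib (-0.20 ± 0.087, adjusted p = 0.0476). After osimertinib its groups overlapped, and that call was lost without PC9 T0 replicate 1 (-0.12) or PC9 osimertinib replicate 2 (-0.074) and with upper quartile factors or library totals. MT-ND2 of complex I stood at 3197 and 2827 at T0, 2529 and 2529 after erlotinib and 2818 and 2474 after osimertinib, with changes of -0.25 ± 0.088 (adjusted p = 0.0143) and -0.19 ± 0.088 (adjusted p = 0.0664). The call after erlotinib was lost without PC9 T0 replicate 1 (-0.17) and with upper quartile factors, library totals or a stricter filter on counts.

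Further mRNAs passed the test in PC9 cells after osimertinib. MT-ND6, the light-strand mRNA, stood at 749 and 628 normalized CPM at T0, 572 and 737 after erlotinib and 981 and 925 after osimertinib, and rose by 0.47 ± 0.11 after osimertinib (adjusted p = 0.000453). MT-ND5, its neighbour on the heavy strand, stood at 2468 and 2083 at T0, 2001 and 2467 after erlotinib and 3185 and 2691 after osimertinib, and rose by 0.37 ± 0.10 after osimertinib. The 2 genes encode complex I subunits and lie end to end on opposite strands. MT-CO2 stood at 5856 and 5178 at T0, 6110.0 and 6423 after erlotinib and 6871 and 6576 after osimertinib, and rose by 0.29 ± 0.088. Osimertinib and T0 libraries did not overlap for these 3 genes. The call of MT-ND5 was lost without PC9 T0 replicate 2 (0.25) or PC9 osimertinib replicate 1 (0.24), and that of MT-CO2 without PC9 T0 replicate 2 (0.20). MT-ND3, MT-ND4L, MT-ND4, MT-CO3, MT-ATP8 and MT-ATP6 had changes between -0.16 and 0.22 after erlotinib and between -0.026 and 0.17 after osimertinib, without a call.

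In H1650 cells, the called mRNAs were all higher. MT-CO1 stood at 8144 and 9471 normalized CPM at T0, 11653 and 11377 after erlotinib and 10481 and 11134 after osimertinib, with changes of 0.39 ± 0.082 (adjusted p = 0.000445) and 0.30 ± 0.082 (adjusted p = 0.00562). MT-CO2 stood at 5780.5 and 7365 at T0, 7563 and 8117 after erlotinib and 7764 and 8839.8 after osimertinib, with changes of 0.25 ± 0.088 and 0.34 ± 0.088. MT-ND4 of complex I stood at 7260.4 and 8864 at T0, 10167 and 10252 after erlotinib and 10137 and 11180 after osimertinib, with changes of 0.34 ± 0.094 and 0.40 ± 0.094. These 3 genes were called with both drugs, and their treated libraries lay above both T0 libraries. MT-CO3 of complex IV rose by 0.24 ± 0.077 after erlotinib. After osimertinib, MT-ND2 rose by 0.23 ± 0.088, MT-CYB by 0.26 ± 0.087 and MT-ND4L by 0.33 ± 0.13, the last with groups that overlapped. H1650 T0 replicate 1 had a lower mRNA share (3.92%) than replicate 2 (4.83%). Without replicate 1, the calls after erlotinib were lost for MT-ND4 (0.20), MT-CO2 (0.087) and MT-CO3 (0.17), and those after osimertinib for MT-ND2 (0.069), MT-ND4L (0.071), MT-CYB (0.14), MT-CO1 (0.19) and MT-CO2 (0.17). Without H1650 erlotinib replicate 2, MT-CO2 (0.20) and MT-CO3 (0.16) lost their calls after erlotinib. Without H1650 osimertinib replicate 2, MT-ND2 (0.17), MT-ND4L (0.15), MT-CYB (0.19) and MT-CO2 (0.24) lost theirs after osimertinib. MT-CO1 after erlotinib and MT-ND4 after osimertinib were called whichever library was left out. DESeq2 did not call MT-ND4 after erlotinib or MT-ND4L after osimertinib, the latter was also lost with at least 10 counts in every library or a fit per line, and MT-ND2 was lost with RLE factors. MT-ND1, MT-ND3, MT-ND5, MT-ND6, MT-ATP8 and MT-ATP6 were not called with either drug, with changes between 0.014 and 0.10 after erlotinib and between -0.0020 and 0.22 after osimertinib.

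To compare the transcripts with one another rather than with nuclear genes, the fit was repeated with the library size set to the summed reads of the 13 mRNAs. This scaling moved the median of all genes by -0.11, -0.18, -0.23 and -0.25 in the 4 drug comparisons, and changes on it are relative to the mRNA pool. In PC9 cells, 10 of 35 genes were higher and 4 lower after erlotinib (40.0%, against 53.6% of all genes, 23.8% higher and 29.8% lower), and 9 were higher and 3 lower after osimertinib (34.3%, against 54.3%, 22.2% higher and 32.1% lower). In H1650 cells, 3 were higher and 0 lower after erlotinib (8.57%, against 30.9%, 7.14% higher and 23.8% lower), and 0 were higher and 3 lower after osimertinib (8.57%, against 31.0%, 6.32% higher and 24.7% lower). For both counts of 0 in H1650 cells, edgeR gave 0 genes at an unadjusted p under 0.05, and DESeq2 was not run on this scale. With libraries scaled to all mitochondrial reads instead, 9 and 7 genes were lower after erlotinib and osimertinib in PC9 cells. The lower counts in PC9 cells became 1 without PC9 T0 replicate 1 and 2 without either PC9 erlotinib replicate after erlotinib, and 0 without PC9 T0 replicate 1 and 1 without PC9 T0 replicate 2 or PC9 osimertinib replicate 1 after osimertinib. The higher count in H1650 cells became 1 without H1650 T0 replicate 1 or H1650 erlotinib replicate 1, and the lower count after osimertinib (MT-TE, MT-TH and MT-TK) 1 without H1650 T0 replicate 1 and 0 without H1650 osimertinib replicate 2. Among these genes, MT-TK passed the filter on reads only through its H1650 T0 libraries. Both rRNAs remained called in PC9 cells, MT-RNR2 at 1.99 ± 0.17 and 1.79 ± 0.17 and MT-RNR1 at 1.40 ± 0.17 and 1.08 ± 0.17. As a percent of the mRNA reads, MT-RNR2 reads in PC9 libraries came to 5.81 and 6.33 at T0, 23.3 and 24.8 after erlotinib and 19.6 and 22.5 after osimertinib, and in H1650 libraries to 8.92 and 8.91 at T0, 14.1 and 14.5 after erlotinib and 9.49 and 10.1 after osimertinib. In H1650 cells, MT-RNR2 was called after erlotinib (0.68 ± 0.16, adjusted p = 0.000292) and not after osimertinib (0.14 ± 0.16, adjusted p = 0.555), and MT-RNR1 with neither drug (0.018 ± 0.17 and -0.21 ± 0.17).

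Within the mRNA pool of PC9 cells, MT-CYB and MT-ND2 were lower after both drugs, and 0 mRNAs were higher (0 also at an unadjusted p under 0.05 in edgeR). MT-CYB took 4.46% and 4.52% of the mRNA reads at T0, 3.14% and 3.13% after erlotinib and 3.41% and 3.24% after osimertinib, with changes of -0.52 ± 0.17 (adjusted p = 0.00415) and -0.43 ± 0.16 (adjusted p = 0.0177). MT-ND2 took 6.30% and 6.32% at T0, 4.73% and 4.77% after erlotinib and 4.71% and 4.75% after osimertinib, with changes of -0.41 ± 0.16 (adjusted p = 0.0262) and -0.42 ± 0.16 (adjusted p = 0.0227). In shares of the pool, the treated libraries of both genes lay below both T0 libraries. MT-CO1, the most read mRNA, took 25.1% and 25.3% at T0, 32.2% and 30.1% after erlotinib and 30.1% and 29.4% after osimertinib, and MT-ATP6 took 9.54% and 9.54% at T0, 7.58% and 7.69% after erlotinib and 8.28% and 7.65% after osimertinib. Neither passed the test on this scale (0.30 ± 0.16 and 0.24 ± 0.16 for MT-CO1, -0.32 ± 0.16 and -0.26 ± 0.16 for MT-ATP6). Standard errors were wider on this scale than in the fit of all libraries scaled to all genes, for MT-CO1 after erlotinib 0.16 against 0.082. When MT-CO1 was left out of the pool, the changes of MT-ND2 were -0.29 and -0.33 and that of MT-CYB after osimertinib -0.34, none of them called. The call of MT-ND2 was also lost without any of the 4 PC9 libraries compared after erlotinib (changes between -0.41 and -0.40), and after osimertinib without PC9 T0 replicate 1 (-0.42), PC9 T0 replicate 2 (-0.41) or PC9 osimertinib replicate 1 (-0.41). That of MT-CYB after osimertinib was lost without either PC9 T0 replicate (-0.44 and -0.42) or PC9 osimertinib replicate 2 (-0.40), and after erlotinib it held in 15 of 15 alternatives. In H1650 cells, 0 of 13 mRNAs were called with either drug in edgeR's fit on this scale, and 0 had an unadjusted p under 0.05. MT-CO1 took 20.3% and 19.3% at T0, 22.5% and 21.4% after erlotinib and 20.7% and 19.8% after osimertinib, and MT-CYB took 5.80% and 5.70% at T0, 5.56% and 5.34% after erlotinib and 5.76% and 5.74% after osimertinib.

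**Figure D4:**
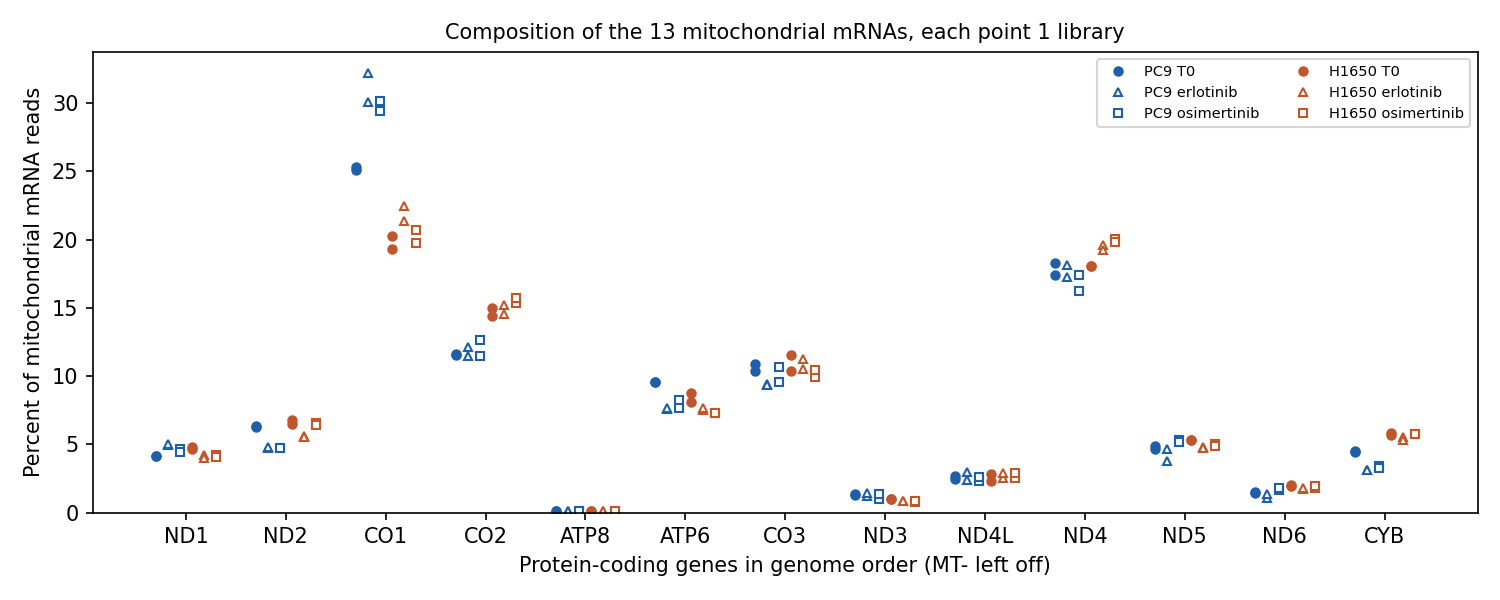
Percent of the reads of the 13 mitochondrial mRNAs (y axis) that fell on each mRNA (x axis, genome order), with 1 point per library, colours for the lines and symbols for the treatments. In PC9 libraries, MT-CO1 lay at 25.1% and 25.3% at T0 and between 29.4% and 32.2% after the drugs, and MT-CYB at 4.46% and 4.52% against at most 3.41%.

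Osimertinib and erlotinib were given at different doses, so their values stand side by side and a difference between them cannot be told apart from the dose. In PC9 cells, 3 of 35 mitochondrial genes were higher and 2 lower after osimertinib than after erlotinib (14.3%, against 16.6% of all genes, 10.1% higher and 6.41% lower), and in H1650 cells 0 were higher and 1 lower (2.86%, against 8.75%, 5.02% higher and 3.73% lower). MT-ND6 (0.54 ± 0.11, adjusted p = 0.000599), MT-ND5 (0.40 ± 0.10, adjusted p = 0.00486) and MT-TP (0.34 ± 0.093) were the higher ones in PC9 cells, and MT-RNR1 (-0.25 ± 0.078) and MT-TL1 (-0.66 ± 0.14) the lower ones. MT-RNR2 was lower in H1650 cells (-0.51 ± 0.083, adjusted p = 0.000101), with levels of 4807 and 5709 after osimertinib and 7316 and 7704 after erlotinib. The lower count in PC9 cells was 1 without PC9 erlotinib replicate 1, PC9 erlotinib replicate 2 or PC9 osimertinib replicate 1, where MT-RNR1 lost its call (-0.27, -0.24 and -0.21). MT-ND5 lost its call without PC9 erlotinib replicate 1 (0.25) or PC9 osimertinib replicate 1 (0.27), and MT-TP without PC9 osimertinib replicate 2 (0.29). With single libraries left out, the higher count of 0 in H1650 cells (1 at an unadjusted p under 0.05, and 1 in DESeq2) became 1 without either H1650 T0 or either PC9 osimertinib replicate. The lower count became 2 without either H1650 T0 replicate, either PC9 erlotinib replicate or H1650 erlotinib replicate 1, and 3 without H1650 osimertinib replicate 2. Scaled to the mRNA pool, 0 were higher and 1 was lower in each line (2.86% each, against 5.87%, 3.25% higher and 2.62% lower in PC9 and 2.12%, 1.05% higher and 1.07% lower in H1650 cells), MT-TL1 at -0.74 ± 0.20 in PC9 and MT-RNR2 at -0.54 ± 0.16 in H1650 cells. The lower call in PC9 cells was lost without either PC9 erlotinib replicate or PC9 osimertinib replicate 1, that in H1650 cells without any library except PC9 osimertinib replicates 1 and 2 and H1650 T0 replicates 1 and 2, and the higher count in PC9 cells became 1 without either H1650 T0 replicate. At an unadjusted p under 0.05, edgeR gave 1 higher gene in PC9 and 0 in H1650 cells on this scale.

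At the time of drugging, the lines differed in their mitochondrial transcripts. At T0, 9 mitochondrial genes were higher and 7 lower in H1650 than in PC9 cells, which is 45.7% of those tested against 69.6% of all genes (35.8% higher and 33.8% lower). Both rRNAs were higher in H1650 cells, MT-RNR1 by 0.58 ± 0.078 (adjusted p = 2.39e-07) and MT-RNR2 by 0.46 ± 0.083 (adjusted p = 2e-05). Among the mRNAs, MT-ND3 (-0.55 ± 0.093, adjusted p = 7.7e-06), MT-CO1 (-0.45 ± 0.082, adjusted p = 2.38e-05), MT-ATP8 (-0.35 ± 0.13) and MT-ATP6 (-0.27 ± 0.10) were lower, and MT-ND6 (0.34 ± 0.11), MT-CYB (0.26 ± 0.087) and MT-CO2 (0.25 ± 0.088) higher. MT-ND3 stood at 658 and 623 normalized CPM in PC9 and 392 and 481 in H1650 cells, and its groups did not overlap, while those of MT-CO2, MT-ATP8, MT-ATP6 and MT-TP did. The tested genes of the light-strand cluster were lower in H1650 cells (MT-TN -0.54 ± 0.11, MT-TC -0.50 ± 0.083 and MT-TY -0.51 ± 0.15), and MT-TA was not tested. MT-TL1 (0.90 ± 0.16), MT-TG, the glycine tRNA (1.15 ± 0.41), MT-TP (0.23 ± 0.10) and MT-TS1, with 1 and 4 against 11 and 34 reads, were higher. The number higher became 5 without PC9 T0 replicate 2 and 4 without H1650 T0 replicate 2. Without either library, the calls of MT-ND6 (0.22 and 0.16), MT-CYB (0.18 and 0.12), MT-CO2 (0.17 and 0.067) and MT-TP (0.15 and 0.074) were lost. The calls of MT-ATP8 (-0.26 and -0.11), MT-ATP6 (-0.18 and -0.10) and MT-TG (0.85 and 0.77) were lost without PC9 T0 replicate 1 or H1650 T0 replicate 1, and that of MT-TS1 without H1650 T0 replicate 2 (1.99). DESeq2 called neither MT-ND6, MT-ATP8, MT-ATP6, MT-TG nor MT-TP, and with library totals the calls of MT-ATP8 and MT-ATP6 were lost. That of MT-TP held in 12 of 21 alternative fits, and was also lost with RLE factors, scaling without mitochondrial rows, at least 1 count in any library, a threshold of 0.01 or without either H1650 osimertinib replicate. Scaled to the mRNA pool, which moved the median of all genes by 0.10, 7 genes were higher and 5 lower (34.3%, against 61.4%, 34.9% higher and 26.5% lower), the rRNAs at 0.67 ± 0.17 and 0.55 ± 0.16, MT-ND6 at 0.44 ± 0.17, MT-ND3 at -0.46 ± 0.17 and MT-CO1 at -0.35 ± 0.16. The 5 lower calls on that scale became 0 to 3 without any library except both PC9 osimertinib replicates, 0 without PC9 T0 replicate 2.

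Whether a change differed between the lines was tested as the log2 change in H1650 cells less that in PC9 cells. With erlotinib, 1 mitochondrial gene had a higher and 8 a lower value in H1650 cells (25.7%, against 40.8% of all genes, 21.1% higher and 19.8% lower), and with osimertinib 2 had a higher and 7 a lower value (25.7%, against 41.9%, 21.5% higher and 20.5% lower). Both rRNAs had smaller changes in H1650 than in PC9 cells. The difference was -1.23 ± 0.12 for MT-RNR2 (adjusted p = 1.4e-09) and -1.30 ± 0.11 for MT-RNR1 (adjusted p = 1.23e-10) with erlotinib, and -1.62 ± 0.12 (adjusted p = 5.02e-12) and -1.25 ± 0.11 (adjusted p = 2.42e-10) with osimertinib. The tRNAs MT-TC, MT-TN, MT-TP, MT-TL1 and MT-TS1 also had lower values in H1650 cells with both drugs, and MT-ND1 with erlotinib (-0.38 ± 0.13). MT-CYB had a higher value in H1650 cells with both, by 0.52 ± 0.12 and 0.46 ± 0.12, and MT-ND2 with osimertinib, by 0.42 ± 0.12. The calls with erlotinib were lost for MT-ND1 without PC9 T0 replicate 2 (-0.29) or H1650 T0 replicate 2 (-0.20) and for MT-TS1 without PC9 T0 replicate 1 (-2.03) or H1650 T0 replicate 2 (-1.82), and that of MT-ND2 with osimertinib without PC9 T0 replicate 1 (0.33) or H1650 T0 replicate 1 (0.27). DESeq2 did not call MT-TS1 with erlotinib. The 1 higher with erlotinib became 8 without H1650 T0 replicate 2, 3 without PC9 T0 replicate 2, PC9 erlotinib replicate 2 or PC9 osimertinib replicate 1, and 2 without PC9 osimertinib replicate 2, H1650 erlotinib replicate 1 or either H1650 osimertinib replicate. The 2 higher with osimertinib became 4 without H1650 T0 replicate 2 and 1 without PC9 T0 replicate 1 or H1650 T0 replicate 1. Scaled to the mRNA pool, 0 were higher and 7 lower with each drug (20.0% each, against 28.3% of all genes with erlotinib and 29.1% with osimertinib), the rRNAs among them, and the higher count with erlotinib became 1 without PC9 erlotinib replicate 2. At an unadjusted p under 0.05, edgeR gave 1 higher gene with erlotinib and 0 with osimertinib there.

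Mitochondrial transcripts are made, cut, stabilized and translated by proteins encoded in the nucleus, and 72 such genes in 8 lists were examined beside them. Of 71 tested, 9 were higher and 41 lower after erlotinib in PC9 cells (median log2 change -0.40), and 8 higher and 45 lower after osimertinib (median -0.50). In H1650 cells, 7 were higher and 19 lower after erlotinib (median -0.10) and 7 higher and 15 lower after osimertinib (median -0.076). Of all genes tested, 32.7% were higher and 29.1% lower after erlotinib in PC9 cells, and 32.7% and 28.7% after osimertinib. The shares in H1650 cells were 18.0% and 18.5%, then 17.8% and 17.9%. The lists were not tested against these shares. TFAM, which packages mitochondrial DNA and acts at its promoters, stood at 158 and 170.0 normalized CPM in PC9 cells at T0, 68.8 and 78.0 after erlotinib and 62.3 and 64.8 after osimertinib, with changes of -1.16 and -1.37. In H1650 cells TFAM stood at 54.0 and 52.4 at T0, 52.4 and 51.6 after erlotinib and 43.5 and 44.0 after osimertinib, with changes of -0.034, which was not called, and -0.28. The polymerase gene POLRMT fell by 0.37 and 0.60 in PC9 cells and had changes of -0.11 and 0.059, without a call, in H1650 cells. TFB2M had changes of -0.38 (called), -0.13, 0.041 and 0.18, and the elongation factor TEFM of -0.18, -0.40 (called), -0.30 and -0.37, in the order of erlotinib and osimertinib in PC9 and then in H1650 cells. TFAM and POLRMT were thus lower with both drugs in PC9 cells, where the rRNA rows were higher, and the relation was not tested.

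Of 9 genes of RNA stability and tailing, 1 was higher and 7 were lower after erlotinib, and 1 was higher and 8 were lower after osimertinib in PC9 cells, beside 4 and 3 lower and none higher in H1650 cells (medians -0.72, -0.69, -0.14 and -0.11). Of all genes, 29.1%, 28.7%, 18.5% and 17.9% were lower in these comparisons, and 32.7%, 32.7%, 18.0% and 17.8% higher. LRPPRC, which stabilizes mitochondrial mRNAs, fell in all 4 comparisons (-0.40, -0.67, -0.32 and -0.40), and so did its partner SLIRP (-0.96, -1.10, -0.42 and -0.56). The poly(A) polymerase gene MTPAP fell in PC9 cells (-0.72 and -0.73) and had changes of -0.11 and 0.030, without a call, in H1650 cells. PDE12, which removes poly(A), fell in all 4 (-1.49, -1.30, -0.32 and -0.52). GRSF1, an RNA granule protein, fell in PC9 cells (-0.32 and -0.24) and had changes of -0.12 and -0.18 without a call in H1650 cells, while FASTK, which is required for MT-ND6 mRNA, rose in PC9 cells (0.19 and 0.19) with changes of 0.10 and 0.17 without a call in H1650 cells. Among the decay genes, PNPT1 of the mitochondrial degradosome fell in PC9 cells (-1.40 and -1.65), had a change of 0.18 without a call after erlotinib in H1650 cells and rose by 0.38 after osimertinib. The 4 decay genes counted 0 higher and 1 lower after erlotinib and 0 higher and 2 lower after osimertinib in PC9 cells, and 0 and 0, then 2 and 0, in H1650 cells (medians -0.036, -0.095, 0.015 and 0.17).

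In the other lists of mitochondrial gene expression, lower calls also outnumbered higher ones in PC9 cells. Of all genes, 29.1% and 28.7% were lower and 32.7% and 32.7% higher there. In H1650 cells 18.5% and 17.9% were lower and 18.0% and 17.8% higher, and these lists were not tested against such shares. The 7 transcription genes counted 2 higher and 3 lower after erlotinib and 1 higher and 3 lower after osimertinib in PC9 cells, and 2 and 1, then 2 and 1, in H1650 cells (medians -0.18, -0.15, -0.034 and 0.059). For the 6 RNA processing genes the counts were 0 higher and 5 lower after erlotinib and 0 higher and 5 lower after osimertinib in PC9 cells, and 1 and 2, then 0 and 1, in H1650 cells (medians -0.70, -0.42, -0.18 and 0.023). The 18 RNA modification genes had 2 higher and 8 lower after erlotinib and 2 higher and 10 lower after osimertinib in PC9 cells, and 0 and 1, then 1 and 2, in H1650 cells (medians -0.28, -0.27, -0.073 and -0.088). The 11 genes of mtDNA maintenance had 1 higher and 7 lower after erlotinib and 1 higher and 7 lower after osimertinib in PC9 cells, and 3 and 5, then 1 and 4, in H1650 cells (medians -0.49, -0.59, -0.026 and -0.079), and the 10 translation factors 2 higher and 5 lower after erlotinib and 2 higher and 5 lower after osimertinib in PC9 cells, and 0 and 4, then 1 and 2, in H1650 cells (medians -0.21, -0.32, -0.23 and -0.16). Of the 7 biogenesis regulators, PPARGC1A had at most 2 reads in any library and was not tested, and the other 6 counted 1 higher and 5 lower after erlotinib and 1 higher and 5 lower after osimertinib in PC9 cells, and 1 and 2, then 0 and 2, in H1650 cells (medians -0.86, -0.93, -0.063 and -0.10). Further genes were named by their mean change among the 14 called in the same direction in each of the 4 comparisons, of which 1 was higher, MTERF2, a factor that binds mitochondrial DNA (0.74, 0.79, 0.97 and 0.93). The share of all genes called so in each of the 4 was not counted. Both comparisons of a line share its T0 libraries, and the 14 serve only to choose names. After MTERF2, the highest mean changes were those of LRPPRC, given above, and POLG, the mitochondrial DNA polymerase (-0.49, -0.59, -0.32 and -0.43). The lowest were DNA2, a nuclease and helicase of DNA replication (-1.95, -2.09, -0.62 and -0.74), PPRC1, a coactivator of the PGC-1 family (-1.34, -1.42, -0.44 and -0.53), and PDE12.

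The nuclear-encoded subunits of the same complexes were more often lower than higher in PC9 cells. Of 78 nuclear subunit genes, 7 were higher and 44 lower after erlotinib and 11 higher and 39 lower after osimertinib in PC9 cells, with medians of -0.27 and -0.26. In H1650 cells, 5 were higher and 12 lower after erlotinib and 9 higher and 5 lower after osimertinib, with medians of -0.061 and 0.036. The 13 mitochondrial mRNAs of these complexes had medians of -0.026, 0.15, 0.10 and 0.22, and the difference between both sets was not tested. Complex V had the lowest medians in PC9 cells (-0.43 and -0.36), with 15 and 14 of 17 genes lower and 1 higher with each drug, and 4 and 2 lower and 0 and 2 higher in H1650 cells (medians -0.15 and 0.026). The 37 complex I genes had 4 higher and 18 lower after erlotinib and 6 higher and 15 lower after osimertinib in PC9 cells, and 3 and 4, then 3 and 1, in H1650 cells (medians -0.23, -0.18, 0.012 and 0.011). The 4 genes of complex II, which has no mitochondrial gene, had 0 higher and 1 lower after erlotinib and 1 higher and 2 lower after osimertinib in PC9 cells, and 0 and 1, then 0 and 1, in H1650 cells (medians -0.18, -0.10, -0.064 and 0.012). The 9 complex III genes had 0 higher and 6 lower after erlotinib and 1 higher and 5 lower after osimertinib in PC9 cells, and 0 and 3, then 0 and 1, in H1650 cells (medians -0.27, -0.28, -0.18 and -0.044), and the 11 complex IV genes 2 higher and 4 lower after erlotinib and 2 higher and 3 lower after osimertinib in PC9 cells, and 2 and 0, then 4 and 0, in H1650 cells (medians -0.14, -0.13, -0.038 and 0.12). The 11 genes of organelle content, such as citrate synthase and outer membrane proteins, had 8, 10, 9 and 8 lower and 0 higher (medians -0.85, -0.94, -0.38 and -0.26), and the 8 mitochondrial chaperones and proteases 1 higher and 7 lower after erlotinib and 0 higher and 8 lower after osimertinib in PC9 cells, and 2 and 3, then 0 and 4, in H1650 cells (medians -0.78, -1.20, -0.19 and -0.21). The median of all genes tested stood at 0.074 and 0.064 in PC9 cells, and 29.1% and 28.7% of all genes were called lower and 32.7% and 32.7% higher there. In H1650 cells that median was 0.00508 and 0, with 18.5% and 17.9% of all genes lower and 18.0% and 17.8% higher. These lists were not tested against such shares.

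**Figure D5:**
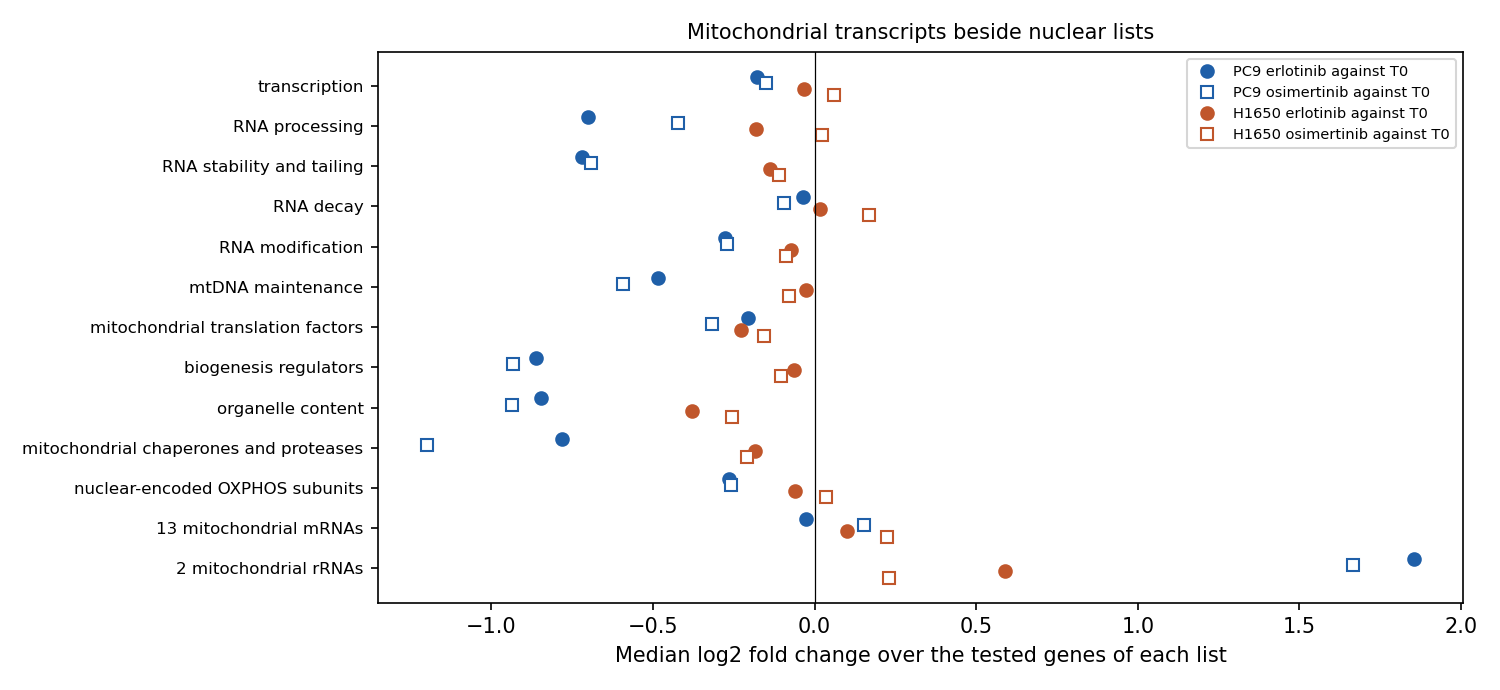
Median log2 fold change against T0 (x axis) over the tested genes of each list of nuclear genes and over the mitochondrial mRNAs and rRNAs (y axis), with 1 symbol for each line and drug. Most nuclear lists lie below 0 in PC9 cells, such as organelle content at -0.85 and -0.94, while the 2 rRNAs lie at 1.85 and 1.66.

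Copies of mitochondrial sequence in the nuclear genome can share reads with the genes they resemble. The table holds 408 rows named as such copies, 76 of them with reads, and together they had 2138 to 4863 reads per library, equal to 0.207% to 0.352% of the reads on mitochondrial genes. MTATP6P1 had the most, with 1539 to 3502 reads. It lies at chr1:633696-634376 (GRCh38) and is identical to MT-ATP6 in 98.5% of 681 bases, so reads may be exchanged between both rows. Its changes were -0.013, 0.013, 0.25 and 0.10, none of them called, beside -0.16, -0.026, 0.073 and 0.043 for MT-ATP6. MTCO1P12, a copy of MT-CO1, had 310 to 855 reads and rose in all 4 comparisons (0.58, 0.56, 0.69 and 0.55), as MT-CO1 did (0.46, 0.47, 0.39 and 0.30). MTND2P28, a copy of MT-ND2, had 49 to 102 reads and changes of -0.066, -0.12, 0.33 and 0.34, none of them called. MTRNR2L12, named for its likeness to MT-RNR2 and chosen after its values were seen, had 19 to 112 reads and rose by 2.04, 1.35 and 1.09, with a change of 0.49 without a call after osimertinib in H1650 cells.

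Because the libraries were made from polyadenylated RNA, nuclear RNAs without a poly(A) tail were counted beside the mitochondrial rRNAs. Of 19 such RNAs, a list chosen after the values were seen, 3 passed the filter on reads. The nuclear rRNA genes of the list (RNA45SN5, RNA28SN5 and RNA18SN5) had no row in the count table and could not be examined. The values of the 3 that passed are given without a count over them, since a row may pass through 1 group where it is high. RN7SL1, the RNA of the signal recognition particle, had 89 and 48 reads in PC9 cells at T0, 104 and 48 after erlotinib and 20 and 30 after osimertinib, and in H1650 cells 162 and 50 at T0, 81 and 52 after erlotinib and 119 and 56 after osimertinib. It was called only after osimertinib in PC9 cells, where it was lower (-1.42). SNORA73B, a small nucleolar RNA, had 42 and 21 reads in PC9 and 181 and 253 in H1650 cells at T0. It had a change of -0.67, without a call, after erlotinib in PC9 cells, and was lower after osimertinib in PC9 cells (-1.30) and after both drugs in H1650 cells (-2.04 and -2.38). RNU5A-1, a spliceosomal RNA, had 0 reads in every PC9 library, and in H1650 cells 48 and 76 reads at T0, 3 and 0 after erlotinib and 5 and 15 after osimertinib. It passed the filter through its H1650 T0 libraries and could not be compared in PC9 cells. No call is given for it in H1650 cells, because the T0 libraries that admitted it were those compared. The part of such RNA in the changes of the mitochondrial rRNAs was not tested.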

How the data were processed

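RNA-seq was measured in 12 libraries of 2 cell lines. The authors deposited whole-number read counts per gene, made with featureCounts in the DolphinNext pipeline, and these deposited counts are not normalized. The submitters' processing notes name GRCh38 and DESeq2. The aligner, the annotation and the strand setting are not given in the sources used here.

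Groups came from the labels. Genes were filtered with filterByExpr, libraries were scaled by TMM, and 1 model with a mean for each of the 6 groups was fitted to 19108 genes with edgeR 4.0.16 (limma 3.58.1, R 4.3.3), using its quasi-likelihood test with Benjamini-Hochberg adjustment over all genes. A second fit set library sizes to the summed counts of the 13 mitochondrial mRNAs. Figures were drawn with matplotlib 3.10.9 (Python 3.11.15). On simulated counts for erlotinib against T0 in PC9 cells, made for 17900 genes, 177 of 200 genes changed by 1 on the log2 scale were recovered, with 13 false calls among 17700. In the data 61.8% of genes were called in this comparison, and the mRNA changes were smaller than 1. The rates of the simulation therefore need not hold for the data.

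Totals of 17961765 to 26346187 counts per library give narrow intervals, which cover counting error only. Alternatives were RLE, upper quartile and unscaled totals, scaling without mitochondrial rows, DESeq2 1.42.0, filters of at least 1 count in any or at least 10 counts in every library, a threshold of 0.01, a fit per line, a replicate block and each library left out.

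The members and the gene lists were chosen with earlier results of these data known, and the list of RNAs without a poly(A) tail after its values were seen. Of the nuclear lists of mitochondrial gene expression, 11 genes were always named, beside the 3 genes with the highest and the 3 with the lowest mean change of those that passed the test, always in 1 direction, in each of the 4 drug comparisons. The other nuclear lists are given by counts and medians, and of the nuclear copies the 3 with most reads were named.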

Additional observations from a re-analysis of the deposited data

Results flagged for a closer look

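The difference between the lines, taken as the log2 change in H1650 less that in PC9 cells (± SE), passed the test of edgeR after Benjamini-Hochberg adjustment for 9 mitochondrial genes with each drug. With erlotinib, the rRNAs differed, MT-RNR1 at -1.30 ± 0.11 and MT-RNR2 at -1.23 ± 0.12, and so did MT-TC at -0.70 ± 0.11, MT-TL1 at -1.24 ± 0.22, MT-TN at -0.74 ± 0.16, MT-TP at -0.79 ± 0.14 and MT-TS1 at -2.67 ± 0.90 among the tRNAs. Among the mRNAs, MT-ND1 differed by -0.38 ± 0.13 (adjusted p = 0.0183) and MT-CYB by 0.52 ± 0.12 (adjusted p = 0.00100). With osimertinib, MT-RNR1 at -1.25 ± 0.11 and MT-RNR2 at -1.62 ± 0.12 differed among the rRNAs, and MT-TC at -0.86 ± 0.12, MT-TL1 at -0.92 ± 0.22, MT-TN at -0.99 ± 0.16, MT-TP at -0.98 ± 0.14 and MT-TS1 at -3.59 ± 0.96 among the tRNAs. MT-ND2 differed by 0.42 ± 0.12 (adjusted p = 0.00757) and MT-CYB by 0.46 ± 0.12 (adjusted p = 0.00299). The adjusted p-values of the rRNAs ran from 5.02e-12 to 1.4e-09, and those of the tRNAs from 5.69e-07 to 0.0187. The T0 libraries of a line served for both drugs, and MT-TS1 rests on few reads.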

How the results depend on the processing

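Lower genes after erlotinib in PC9 cells numbered 2 with upper quartile factors, library totals, DESeq2 or at least 10 counts in every library and 1 at a threshold of 0.01 (1 to 4 with single libraries left out). After osimertinib they numbered 2 with RLE, scaling without mitochondrial rows or a fit per line, 3 with at least 1 count in any library, and 0 with upper quartile factors, library totals or the threshold of 0.01 (0 to 3). In H1650 cells, lower genes after osimertinib numbered 0 with upper quartile factors, library totals, DESeq2, both filters and the threshold of 0.01 (0 to 1), and higher genes ranged from 5 to 13 after erlotinib and from 2 to 14 after osimertinib. For osimertinib against erlotinib, 1 was lower in PC9 cells at the threshold of 0.01 (1 to 2). In H1650 cells 1 was higher with DESeq2 or at least 1 count in any library (0 to 1), and 4 were lower with library totals and 3 with at least 1 count in any library (1 to 3). At T0, 5 were higher at the threshold of 0.01 (4 to 9). By line, higher genes with erlotinib numbered 2 with library totals, scaling without mitochondrial rows, DESeq2 or at least 10 counts in every library and 6 with at least 1 count in any (1 to 8), and with osimertinib 4 with the latter (1 to 4). The cause of these shifts was not tested.

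Relative to the mRNA pool, scaling to all mitochondrial rows gave 9 and 7 lower after erlotinib and osimertinib in PC9 cells, 1 higher and, in H1650 cells, 0 lower for osimertinib against erlotinib, and 2 higher by line with each drug. Leaving MT-CO1 out of the pool gave 1 lower after osimertinib in PC9 cells. With single libraries left out, lower genes ranged from 1 to 4 and from 0 to 4 in PC9 cells, and in H1650 cells higher ones from 1 to 3 after erlotinib and lower ones from 0 to 4 after osimertinib. For osimertinib against erlotinib they ranged from 0 to 1 in each direction in PC9 cells and from 0 to 1 lower in H1650 cells, at T0 from 0 to 5 lower, and by line with erlotinib from 0 to 1 higher.

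Replicate numbers did not pair the libraries: 15 correlations of same-numbered libraries' deviations lay between -0.0671 and 0.0947, and 0 exceeded 0.1. With a replicate block, 2 genes were lower after osimertinib in PC9 and 0 in H1650 cells, 1 was higher and 4 were lower for osimertinib against erlotinib in H1650 cells, and 2 were higher with erlotinib by line. Relative to the mRNA pool the block gave 0 lower for osimertinib against erlotinib in H1650 cells and 3 lower at T0.

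MT-RNR1 after osimertinib in H1650 cells, not called, had changes of -0.029 without H1650 T0 replicate 1 and -0.048 without H1650 osimertinib replicate 2 (up to 0.15 without any other). Relative to the mRNA pool, its change after erlotinib, not called, was -0.051 with all mitochondrial rows, -0.039 without H1650 T0 replicate 2 and -0.056 without H1650 erlotinib replicate 2 (up to 0.088 without any other). As a percent of the counts on all other rows, mitochondrial reads came to 7.34% in PC9 and 7.02% in H1650 cells after erlotinib. Of the called genes named, 0 reversed direction. With all 12 libraries, 816 values kept their call and 59 lost it, and with libraries left out 1014 kept and 90 lost it (165 and 15, and 628 and 92, relative to the mRNA pool). Many of the libraries left out were of no group compared, so these counts are not independent checks.

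Depth does not limit the mRNA and rRNA rows, where counting error is small beside the spread between libraries. It limits most tRNA rows, which held under 100 reads. With 2 libraries a group, small changes can be decided by single libraries, at T0 or after treatment.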
